A study of Mus musculus with 38 samples.

Results

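Voltage-gated calcium channels were examined through 10 subunit genes, taken from a list by name, of the 22375 genes with a counted coding sequence (CDS). They were the 8 genes for pore-forming alpha1 subunits Cacna1a, Cacna1b, Cacna1c, Cacna1d, Cacna1e, Cacna1g, Cacna1h and Cacna1i, and the 2 genes for auxiliary alpha2delta subunits Cacna2d1 and Cacna2d2. Every one of the 10 passed the filter on low counts in each comparison of coding footprints. The data were PL-Ribo-seq libraries of cortical neurons cultured from mouse embryos, in which a biotin ligase (TurboID) labelled proteins around it and ribosome-protected mRNA fragments (footprints) were sequenced before and after a streptavidin pulldown.

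The 38 libraries fell into 14 groups. All neurons carried a lentivirus for the ligase, were treated with cycloheximide, which stops elongation, for 2 min, and were given biotin, for 30 min per the labels, although a shorter time after DHPG appears in the methods. PSD95-TurboID carries elements of PSD95, a scaffold of excitatory postsynapses, that hold it in dendrites, whereas Pan-TurboID has no localization signal. In the KCl experiment, both baits were used in resting neurons and in neurons silenced for 2 h with TTX and DL-AP5 and then depolarized (dep) with 55 mM KCl for 1 h, with 3 input and 3 pulldown libraries in each. Per the methods, the KCl medium was then exchanged for fresh medium with biotin, TTX and DL-AP5 for 30 min. The DHPG experiment held 3 inputs and 3 pulldowns of PSD95-TurboID neurons that were silenced in the same way and then exposed for 10 min to 100 µM DHPG, which activates group I mGluRs. For the knockdown experiment, PSD95-TurboID neurons received an siRNA against eIF4G2 (20 nM, 72 h). They were at rest, or were silenced for 2 h and depolarized with 55 mM KCl for 1 h as above. Each condition had 2 inputs and 2 pulldowns, and a control siRNA was not analysed here. Bait expression came from a doxycycline-inducible virus and varied between neurons, and replicates are called biological in the methods, while no label says whether same-group libraries came from separate cultures, so p-values measure the spread between these libraries. Per the labels' descriptions, the inputs of DHPG and the knockdown libraries are cytosolic, while their virus field gives PSD95-TurboID.

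An alpha1 subunit forms the calcium pore and carries the voltage sensor, and its identity sets the class of current. P/Q-type (Cacna1a), N-type (Cacna1b) and R-type (Cacna1e) channels trigger transmitter release at presynaptic terminals, and R-type channels also act in spines. L-type channels (Cacna1c, Cacna1d) sit on the soma and dendrites and couple calcium entry to transcription, T-type channels (Cacna1g, Cacna1h, Cacna1i) open near the resting potential, and alpha2delta subunits carry channels to the surface and bind gabapentin.

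Coding counts ranged from 2047169 to 14636019 per library. CPM below is counts scaled to 1000000 of these coding counts per library, and CPM per kb is CPM divided by the CDS length of the transcript used. Dlg4, which encodes PSD95 and whose elements are part of the bait, was higher in PSD95-TurboID pulldowns than in inputs by 3.70 ± 0.66 on the log2 scale (SE) at rest, against −0.25 ± 0.62 for Pan-TurboID. Per the methods, the bait contains rat PSD95 with PSD95 UTRs, so Dlg4 counts can include footprints of the bait's own mRNA. In resting inputs, Dlg4 was at 159 ± 31.7 CPM with PSD95-TurboID and 54.3 ± 5.17 CPM with Pan-TurboID (SD, n = 3). Eif4g2 was lower in knockdown than in other resting inputs, by −0.98 on the log2 scale (edgeR, adjusted p = 0.00376). In the 4 libraries of replicate 1 of the depolarized KCl groups, CDSs of the longest transcripts held 12.5% to 24.8% of all counts, against 19.6% to 49.2% in the other 34 libraries. Of 7 neuronal markers, all were counted, and their summed level was 2688 to 5452 CPM in inputs. Markers of other cell types were counted as well, while the paper reports cultures free of non-neuronal cells by staining and transcript analysis. In inputs of the KCl experiment, 5 astrocyte markers summed to 282 to 771 CPM and 7 markers of the oligodendrocyte lineage to 133 to 524 CPM, with Olig1 of its progenitors at a median of 93.3 CPM over all inputs and Mog of mature oligodendrocytes at 0.

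Alternative splicing gives several alpha1 genes 2 copies of an exon of the same length, of which a channel normally carries 1. The copies shown here are those whose use the footprints could tell apart, since they share at most 14 bases in a row and footprints were at least 25 nt long. In Cacna1a, Cacna1b and Cacna1e, the copies are 97 nt long and encode part of an EF-hand-like region in the cytoplasmic tail. In mm10, the Cacna1a copies lie on the plus strand at chr8:84614695-84614791 (upstream) and chr8:84615574-84615670 (downstream). The Cacna1b copies lie on the minus strand at chr2:24626823-24626919 (upstream) and chr2:24625238-24625334 (downstream), and those of Cacna1e, also on the minus strand, at chr1:154417950-154418046 and chr1:154416061-154416157. All are coding exons, written 5′ to 3′ in the direction of the gene, with capitals for the bases that differ between the 2 copies of the same gene.
Cacna1a upstream copy: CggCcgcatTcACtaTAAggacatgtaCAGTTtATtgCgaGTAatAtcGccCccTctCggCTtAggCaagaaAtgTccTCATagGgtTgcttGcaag
Cacna1a downstream copy: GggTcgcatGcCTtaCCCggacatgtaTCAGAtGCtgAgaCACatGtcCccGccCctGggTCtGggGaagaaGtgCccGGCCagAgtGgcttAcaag
Cacna1b upstream copy: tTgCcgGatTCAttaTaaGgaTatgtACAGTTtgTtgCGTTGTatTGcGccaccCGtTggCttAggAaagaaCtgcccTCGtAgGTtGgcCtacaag
Cacna1b downstream copy: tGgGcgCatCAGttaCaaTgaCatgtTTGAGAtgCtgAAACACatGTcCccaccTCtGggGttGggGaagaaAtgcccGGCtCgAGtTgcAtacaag
Cacna1e upstream copy: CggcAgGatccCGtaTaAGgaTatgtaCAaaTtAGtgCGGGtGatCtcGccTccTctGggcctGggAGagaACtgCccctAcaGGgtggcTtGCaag
Cacna1e downstream copy: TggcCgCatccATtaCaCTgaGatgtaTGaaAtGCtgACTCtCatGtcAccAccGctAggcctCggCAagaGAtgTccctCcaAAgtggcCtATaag

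Most footprints of these 97-nt pairs came from the downstream copy. In Cacna1a, 9 footprint 5′ ends fell in the upstream copy and 672 in the downstream copy, so that the downstream copy took 98.7% (95% Wilson interval 97.5% to 99.3%), and it was ahead in 38 of 38 libraries. Cacna1b had 0 in the upstream copy and 518 in the downstream copy, an interval of 99.3% to 100.0%, with the downstream copy ahead in 33 libraries and neither counted in 5. In Cacna1e the downstream share was 92.1% (90.0% to 93.8%; 714 of 775). The 61 counts of the Cacna1e upstream copy came mostly from the KCl experiment, where the downstream share was 85.8% (81.6% to 89.2%), against 96.5% (94.0% to 98.0%) among DHPG libraries and 97.2% (92.2% to 99.1%) among knockdown libraries. The largest upstream counts in single libraries, 11, 8 and 7, were all in Pan-TurboID pulldowns, a bait that the DHPG and knockdown experiments lack. Bait and experiment are thus mixed in this comparison. Intervals cover counting error only, and the difference between experiments was not tested. The downstream copies were 79.4% identical between Cacna1a and Cacna1b, more than the 61.9% between the 2 copies within Cacna1a. The longest transcript of Cacna1a holds the upstream copy, so the downstream counts are outside its level in the comparisons.

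L-type Cacna1c has 3 such pairs, and its choice differed from pair to pair. The pair of 84 nt encodes a voltage-sensor segment of the last repeat and lies on the minus strand of mm10 at chr6:118638427-118638510 (upstream) and chr6:118637730-118637813 (downstream). The pair of 104 nt encodes a pore-lining segment of the first repeat and lies at chr6:118742265-118742368 (upstream) and chr6:118741871-118741974 (downstream). Capitals again mark bases that differ between the copies.
Cacna1c 84-nt upstream copy: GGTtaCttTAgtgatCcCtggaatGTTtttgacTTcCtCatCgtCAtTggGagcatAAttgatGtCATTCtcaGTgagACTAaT
Cacna1c 84-nt downstream copy: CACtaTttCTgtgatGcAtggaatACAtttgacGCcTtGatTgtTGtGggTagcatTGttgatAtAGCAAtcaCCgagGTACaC
Cacna1c 104-nt upstream copy: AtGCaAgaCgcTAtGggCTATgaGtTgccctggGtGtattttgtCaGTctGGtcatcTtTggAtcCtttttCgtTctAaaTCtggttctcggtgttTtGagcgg
Cacna1c 104-nt downstream copy: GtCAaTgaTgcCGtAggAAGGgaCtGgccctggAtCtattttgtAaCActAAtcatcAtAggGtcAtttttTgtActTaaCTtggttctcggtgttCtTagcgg

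Footprints of the 84-nt pair of Cacna1c were mixed, with 51 in the upstream and 185 in the downstream copy, a downstream share of 78.4% (72.7% to 83.2%). For the 104-nt pair the upstream copy led with 142 counts against 10, and the downstream share was 6.58% (3.61% to 11.7%). Those 10 counts were 0 of 44 in resting libraries, which allows up to 8.03% by the Wilson interval, 5 of 36 in depolarized libraries (6.08% to 28.7%) and 5 of 72 in DHPG libraries (3.00% to 15.2%), and these differences were not tested. In depolarized libraries, 3 of the 5 downstream counts came from the Pan-TurboID pulldown of replicate 2, which also held 7 upstream. A pair of 60 nt gave 0 upstream and 69 downstream. In Cacna1d, the other L-type gene, a 60-nt pair gave 52 upstream and 0 downstream, and a 104-nt pair gave 6 and 12, too few to order.

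**Figure D1:**
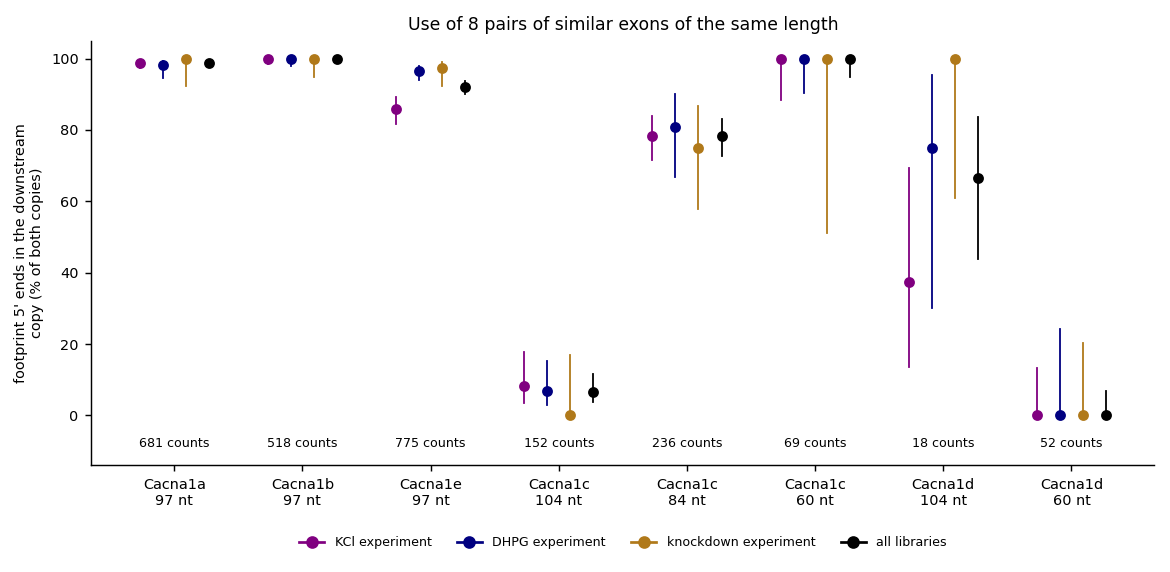
Share of footprint 5′ ends in the downstream exon copy (percent of both copies, y axis) for 8 pairs of similar exons, with points for sets of libraries and bars for 95% Wilson intervals of the counting error. The 97-nt pairs of Cacna1a, Cacna1b and Cacna1e lie near the top at 98.7%, 100.0% and 92.1% over all libraries, and the 104-nt pair of Cacna1c lies at 6.58%.

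Per kb of CDS, Cacna2d1 had the highest level in the 6 resting inputs of the KCl experiment, 62.1 ± 16.0 CPM per kb (SD, n = 6, 46.2 to 86.9), and its range did not overlap that of any other member. Next came N-type Cacna1b at 32.9 ± 9.26 (19.7 to 45.5) and Cacna2d2 at 27.0 ± 8.0 (20.8 to 41.2), whose ranges overlapped. The Cacna1b level came mostly from the first 3253 nt of its CDS, with 177 CPM in these inputs against 51.8 CPM on the remaining 3725 nt. P/Q-type Cacna1a at 16.7 ± 2.33 CPM per kb and R-type Cacna1e at 13.1 ± 2.09 overlapped each other and lay below Cacna2d2. T-type Cacna1h stood at 7.11 ± 1.38 CPM per kb and L-type Cacna1c at 6.44 ± 0.989, again with overlapping ranges. The lowest were Cacna1g at 2.83 ± 1.13, Cacna1i at 2.75 ± 0.316 and Cacna1d at 2.08 ± 1.11 CPM per kb, which were not separated from each other. Among 11770 genes with a median of 22.5 CPM per kb, the members thus ran from the 5.54th percentile (Cacna1d) to the 76.7th (Cacna2d1). In bulk libraries, fewer cells of a type and less RNA per cell cannot be told apart, and footprints alone do not separate the amount of mRNA from its translation.

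The level of Cacna1d depends on the transcript. Its longest transcript, with UTRs included, has a CDS of only 1542 nt, while 64.5% of its 3′ UTR is coding sequence in other transcripts of the gene. On the transcript with the most counts, whose CDS is 6480 nt, the level at rest with PSD95-TurboID was 9.71 ± 5.72 CPM in inputs (SD, n = 3) and 34.6 ± 15.2 CPM in pulldowns. The 1069 counts of the 1542-nt CDS over all libraries are the fewest of any member, so its values carry the widest errors.

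Across the 14 groups, group means of single members spread over 3.75-fold (Cacna1c) to 12.5-fold (Cacna1i). Cacna1a was lowest in knockdown dep inputs at 64.4 CPM and highest in resting PSD95-TurboID pulldowns at 324 CPM. For Cacna1b, Cacna1c, Cacna1e, Cacna1g, Cacna1h and Cacna1i the highest group was the DHPG pulldown, at 936, 114, 556, 116, 168 and 81.2 CPM in that order of genes. Cacna2d1 was highest in resting knockdown inputs at 464 CPM. Cacna2d2 was highest in resting PSD95-TurboID pulldowns at 132 CPM and lowest in knockdown dep pulldowns at 19.7 CPM.

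**Figure D2:**
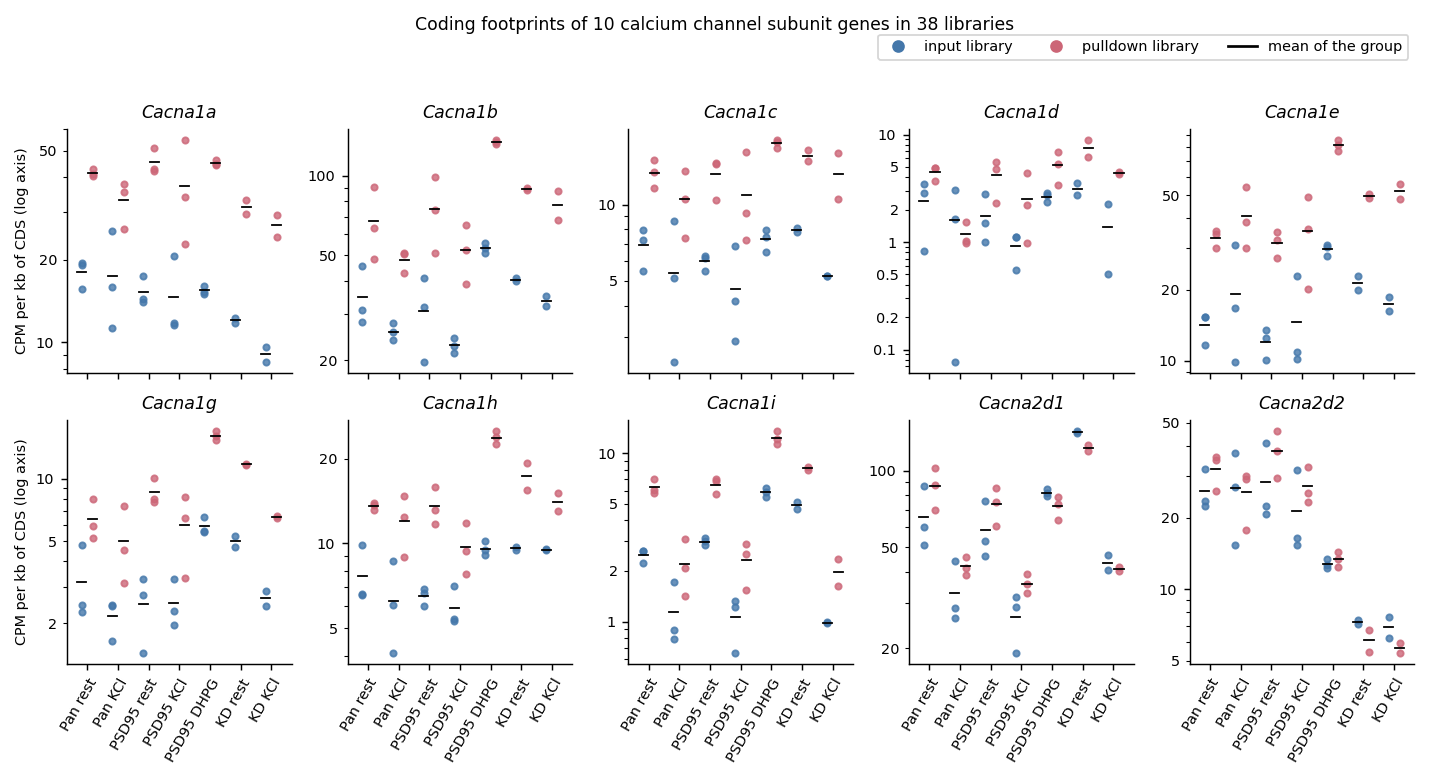
CPM per kb of CDS (log axis) of the 10 genes in 38 libraries, with input libraries in blue, pulldown libraries in red and a black line at each group mean. Group means of the alpha1 genes are higher in pulldowns than in inputs of the same neurons, except for Cacna1d with Pan-TurboID after KCl, whereas for Cacna2d1 and Cacna2d2 the 2 fractions lie close together and the experiments lie apart.

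Pulldowns were compared with inputs to ask which footprints travelled with biotinylated ribosomes. For the presynaptic classes, Cacna1a had 124, 100 and 103 CPM in resting PSD95-TurboID inputs (replicates 1 to 3) and 306, 301 and 365 CPM in the pulldowns. Cacna1b, the N-type pore, had 287, 138 and 222 CPM in these inputs and 693, 356 and 518 CPM in the pulldowns. Cacna1e, the R-type pore, had 92.0, 85.6 and 68.9 CPM in inputs and 240, 185 and 220 CPM in pulldowns. Pulldowns and inputs did not overlap for any of the 3 genes. Here and below, the share of all genes whose groups do not overlap was not counted, so such statements have no baseline. The log2 fold changes were 1.61 ± 0.31 (SE) for Cacna1a, 1.31 ± 0.26 for Cacna1b and 1.42 ± 0.38 for Cacna1e (edgeR quasi-likelihood test, Benjamini-Hochberg adjusted p = 0.00321, 0.00339 and 0.0118).

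Among L-type genes, Cacna1c had 40.2, 40.9 and 35.6 CPM in inputs and 95.1, 67.9 and 93.8 CPM in pulldowns, without overlap, and rose by 1.16 ± 0.37 on the log2 scale (edgeR, adjusted p = 0.0256). Cacna1d had 4.30, 1.53 and 2.34 CPM in inputs and 8.53, 3.55 and 7.33 CPM in pulldowns. These ranges overlap, and its 1.24 ± 0.74 did not pass (edgeR, adjusted p = 0.226), whereas on the 6480-nt CDS the inputs had 16.2, 7.45 and 5.46 CPM, the pulldowns 51.6, 22.4 and 29.8 CPM without overlap, and the change of 1.88 ± 0.51 passed (edgeR, adjusted p = 0.0112). Among T-type genes, Cacna1g had 19.5, 10.3 and 23.4 CPM in inputs and 57.2, 55.4 and 72.3 CPM in pulldowns, the largest member change on longest transcripts at 1.83 ± 0.38 (edgeR, adjusted p = 0.00363). Its pulldowns all lay above its inputs. Cacna1h, at 42.5, 47.4 and 48.9 CPM in inputs and 93.3, 82.9 and 112 CPM in pulldowns, rose by 1.08 ± 0.26, and Cacna1i, at 18.7, 20.6 and 19.8 against 46.2, 44.9 and 37.6 CPM, rose by 1.16 ± 0.32 (edgeR, adjusted p = 0.00628 and 0.0128).

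Neither alpha2delta gene passed without the pairing of input and pulldown. Cacna2d1 had 173, 151 and 249 CPM in inputs and 246, 197 and 280 CPM in pulldowns, and its log2 change was 0.37 ± 0.25 (edgeR, adjusted p = 0.296). Cacna2d2 had 72.1, 77.7 and 143 CPM in inputs and 102, 133 and 160 CPM in pulldowns, with a change of 0.47 ± 0.34 (edgeR, adjusted p = 0.334). In both genes the groups overlapped, while each pulldown lay above the input of its own number.

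In all, 7 of 10 members passed as higher in resting PSD95-TurboID pulldowns, where 11.5% of 13003 genes did. Long genes passed more often, at 34.8% of 601 genes with a CDS of at least 5000 nt, a class that holds 7 of the 8 alpha1 genes and no alpha2delta gene. The members' median log2 change was 1.20, against −0.05 over all genes and 0.65 over the long genes. With the trend over CDS length removed, 4 members and 14.1% of all genes passed, against 25.1% of genes in either direction with it. Without replicate 3 of every group, 0 of 10 members and 0 of 13197 genes passed, and without replicate 2 it was 4 members and 8.66% of genes. Input and pulldown of the same number deviated together, and with this pairing as a replicate block 9 members passed, Cacna2d1 included at 0.39 (edgeR, adjusted p = 0.024) and Cacna2d2 at 0.52 (edgeR, adjusted p = 0.012). The share of all genes called in either direction was 41.9% with the block.

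After KCl, 6 members passed as higher in PSD95-TurboID pulldowns, where 8.21% of all genes and 30.4% of the long genes did. They were Cacna1a at 1.39 ± 0.31, Cacna1b at 1.24 ± 0.26, Cacna1c at 1.28 ± 0.38, Cacna1e at 1.32 ± 0.38, Cacna1g at 1.31 ± 0.38 and Cacna1i at 1.19 ± 0.36. Cacna1h was at 0.75 ± 0.26 (edgeR, adjusted p = 0.0548), and passed by the likelihood ratio test (edgeR, adjusted p = 0.0418) and DESeq2 (adjusted p = 0.0283). Without the filter on low counts, Cacna1e did not pass (edgeR, adjusted p = 0.0509). Cacna1a shows the spread behind these errors, with 147, 84.0 and 82.3 CPM in inputs and 389, 162 and 240 CPM in pulldowns, replicate 1 being the highest in both. With the replicate block 9 members, both alpha2delta genes among them, and 34.6% of all genes passed in either direction, against 12.6% of genes without it. With the length trend removed 1 member and 5.36% of genes passed, and without replicate 3 it was 0 members and 3 genes.

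Pan-TurboID pulldowns were also higher than their inputs for pore genes. For Cacna1a, Pan-TurboID at rest gave 139, 136 and 112 CPM in inputs and 305, 288 and 292 CPM in pulldowns, with no overlap. At rest 5 members passed as higher, where 4.52% of all genes and 14.8% of the long genes did, namely Cacna1a at 1.24 ± 0.30, Cacna1b at 1.00 ± 0.26, Cacna1e at 1.28 ± 0.38, Cacna1h at 0.87 ± 0.25 and Cacna1i at 1.38 ± 0.32. After KCl 5 members passed as well, where 5.13% of all genes and 22.0% of the long genes did, with Cacna1g at 1.28 ± 0.38 in place of Cacna1e at 1.15 ± 0.38. By DESeq2, Cacna1e passed after KCl as well (adjusted p = 0.017) and Cacna1g at rest (adjusted p = 0.0306), as both did by the likelihood ratio test. Cacna1c passed by DESeq2 at rest and after KCl (adjusted p = 0.0397 and 0.0348), and after KCl by the likelihood ratio test (adjusted p = 0.0497). Without the filter on low counts, Cacna1e at rest and Cacna1i after KCl did not pass (edgeR, adjusted p = 0.064 and 0.0504). With the replicate block the counts were 8 and 8, with Cacna2d1 at 0.46 at rest (edgeR, adjusted p = 0.0105) and 0.44 after KCl (edgeR, adjusted p = 0.018). The shares of all genes called in either direction were 32.9% and 31.9% with the block and 9.54% and 8.75% without it. Without replicate 2, and likewise without replicate 3, both counts were 0, as they were over all 12800 and 13197 genes tested. With the length trend removed, 1 member and 2.91% of genes passed at rest, and 0 members and 2.58% of genes after KCl.

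No member was higher or lower with PSD95-TurboID beyond Pan-TurboID, the direct test of the bait, in which 1 gene of 13003 (0.00769%), Dlg4, passed. Since Dlg4 counts can include the bait's own mRNA, that call does not show whether the test can find other genes. At an unadjusted p under 0.05, 84 genes were higher and 85 lower. The members' differences ran from −0.08 ± 0.34 for Cacna1i to 0.94 ± 0.77 for Cacna1d, with Cacna1a at 0.39 ± 0.30. The change of PSD95-TurboID enrichment with KCl likewise passed for 0 members, and 0.0% of all genes were called. Here the members ran from −0.52 ± 0.53 for Cacna1g to 0.22 ± 1.07 for Cacna1d. DESeq2 and the likelihood ratio test also called 0 members in both tests.

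Over the 19 library pairs of all experiments, the ratio of pulldown CPM to same-numbered input CPM was above 1 in 149 of 152 pairs of alpha1 genes. The 3 ratios under 1 were all of Cacna1d on its 1542-nt CDS, whose ratios spread from 0.331 to 20.0. On its 6480-nt CDS, 18 of 19 ratios were above 1, from 0.906 to 5.46 with a median of 2.88. Without that gene, 133 of 133 ratios lay above 1, from 1.10 to 5.37 with a median of 2.30. For the alpha2delta genes, 26 of 38 ratios were above 1, from 0.707 to 1.86 with a median of 1.09. They split by experiment, with 23 of 24 above 1 in the KCl experiment and 3 of 14 in the DHPG and knockdown experiments. The same shares over all genes or the long genes were not counted, so these counts have no baseline. The long genes, which hold every alpha1 gene here but Cacna1d and neither alpha2delta gene, had a median log2 change of 0.65 in resting PSD95-TurboID pulldowns.

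**Figure D3:**
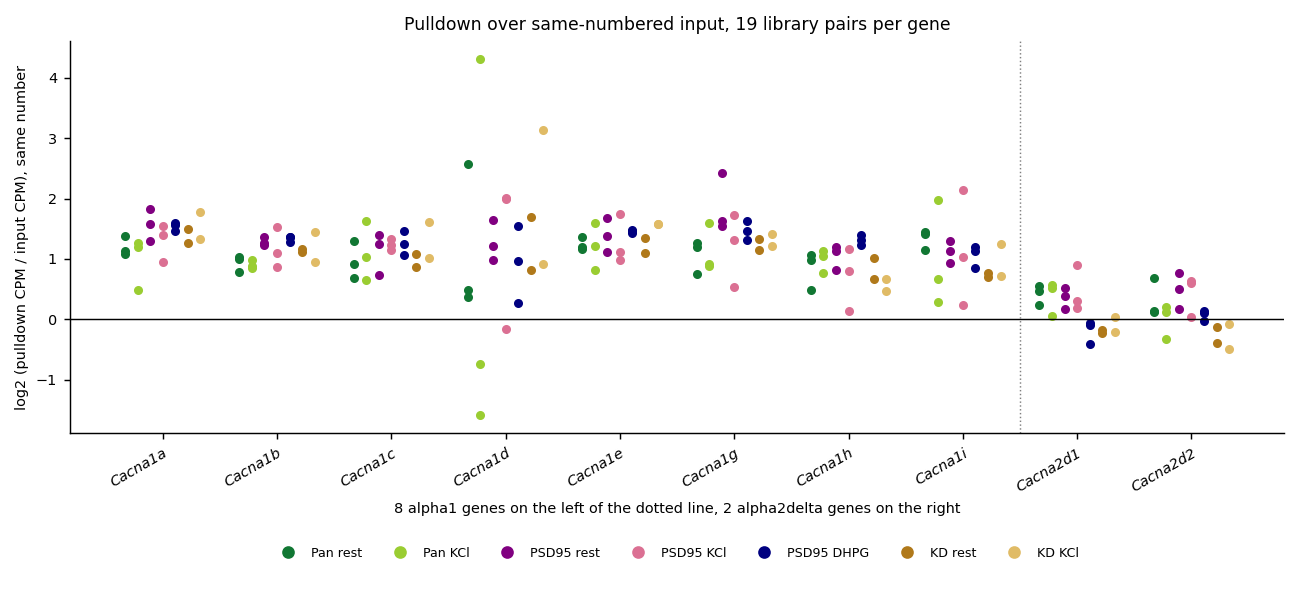
Log2 ratio of pulldown CPM to the CPM of the same-numbered input for 19 library pairs per gene, coloured by bait and treatment. All pairs of alpha1 genes other than Cacna1d lie above 0, and the pairs of Cacna2d1 and Cacna2d2 lie on both sides of it.

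After silencing and KCl, footprints were lower on 2 members, the T-type pore Cacna1i and the alpha2delta gene Cacna2d1. Per the labels, depolarized neurons were silenced for 2 h and resting neurons were not. The methods also place the silencers in the medium after KCl. KCl and silencing therefore cannot be told apart in any comparison of depolarized with resting libraries, with or without knockdown. Cacna1i had 17.5, 14.8 and 17.4 CPM in resting Pan-TurboID inputs and 18.7, 20.6 and 19.8 CPM in resting PSD95-TurboID inputs. After KCl it had 11.4, 5.22 and 5.90 CPM with Pan-TurboID and 8.10, 8.72 and 4.32 CPM with PSD95-TurboID. All 6 depolarized inputs lay below all 6 resting inputs, and the log2 change was −1.35 ± 0.25 (edgeR, adjusted p = 0.000389). Cacna2d1 had 196, 166 and 285 CPM in resting Pan-TurboID inputs and 173, 151 and 249 CPM in resting PSD95-TurboID inputs. It had 144, 94.5 and 86.0 CPM and 95.1, 62.9 and 104 CPM after KCl. Here too the 2 sets of inputs did not overlap, and the log2 change was −1.02 ± 0.18 (edgeR, adjusted p = 0.000259).

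These 2 of 10 compare with 9.02% of all genes that were lower in inputs after KCl. By edgeR, 0 of the other 8 members passed, and their changes ran from −0.81 ± 0.56 for Cacna1d to 0.40 ± 0.27 for Cacna1e, which passed as higher with the length trend removed, at 0.57 ± 0.18 (edgeR, adjusted p = 0.0345). Cacna1a, the P/Q-type pore, was at −0.01 ± 0.21. Summed neuronal markers were at 2688 to 3887 CPM in depolarized and 3556 to 4383 CPM in resting inputs, and their part in these changes was not tested. Without replicate 1 the count was 4, with Cacna1c at −0.76 and Cacna2d2 at −0.70 added, where 16.2% of all genes were called in either direction against 15.4% with it. Without replicate 3 it was 1 member and 3.9% of genes, with Cacna1i at −1.07 (edgeR, adjusted p = 0.0565).

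Pulldowns moved in the same direction for both genes. In PSD95-TurboID pulldowns, Cacna1i went from 46.2, 44.9 and 37.6 CPM at rest to 16.5, 10.2 and 19.1 CPM after KCl, a change of −1.49 ± 0.33 (edgeR, adjusted p = 0.00717). Cacna2d1 went from 246, 197 and 280 to 108, 117 and 128 CPM, a change of −1.01 ± 0.26 (edgeR, adjusted p = 0.0173). Neither gene's groups overlapped, and 3.28% of all genes were lower in this comparison. In Pan-TurboID pulldowns, Cacna1i changed by −1.42 ± 0.32 and Cacna2d1 by −0.98 ± 0.25 (edgeR, adjusted p = 0.00906 and 0.0218), where 3.15% of all genes were lower. Both genes passed without replicate 1 in both kinds of pulldown. For PSD95-TurboID, 0 members passed without replicate 2 or without replicate 3, where Cacna1i was at −1.17 and −1.78 and Cacna2d1 at −1.10 and −0.95. For Pan-TurboID, Cacna1i alone passed without replicate 2 and 0 members without replicate 3. The shares of all genes called in either direction fell from 6.58% to 0.852% and 0.697% for PSD95-TurboID and from 5.03% to 1.29% and 0.561% for Pan-TurboID. For PSD95-TurboID, 3 members and 11.2% of all genes passed without replicate 1, with Cacna1a added at −0.76 (edgeR, adjusted p = 0.0493).

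In the libraries of eIF4G2 knockdown, both genes were lower after KCl as well. Inputs of Cacna1i went from 30.9 and 33.7 CPM to 6.48 and 6.54 CPM, a change of −2.29 ± 0.30, and those of Cacna2d1 from 460 and 468 to 152 and 133 CPM, a change of −1.68 ± 0.10 (edgeR, adjusted p = 2.57e-06 and 7.25e-12). Neither gene's groups overlapped. Cacna1a, Cacna1c and Cacna1g were lower as well, by −0.41 ± 0.14, −0.59 ± 0.20 and −0.92 ± 0.22 (edgeR, adjusted p = 0.0448, 0.0373 and 0.00333). That makes 5 members, where 10.3% of all genes were lower. On its 6480-nt CDS Cacna1d passed too, at −1.32 ± 0.32 (edgeR, adjusted p = 0.00386). DESeq2 or RLE size factors gave 3, without Cacna1a and Cacna1c, where 16.9% and 19.3% of all genes were called. Summed neuronal markers in the knockdown inputs were at 5151 to 5277 CPM at rest and 2893 to 2948 CPM after KCl. Astrocyte markers were at 489 to 504 and 652 to 670 CPM, and fibroblast markers at 154 to 161 and 266 to 280 CPM. Sums of vascular smooth muscle, endothelium and dividing cells were higher after KCl too, while those of the oligodendrocyte lineage and microglia overlapped. The part of these marker sums in the changes was not tested. Leaving out a replicate here leaves 1 library in each group compared, which is assumed to vary like the pulldown groups of the same fit. So fitted, Cacna1i and Cacna2d1 alone passed without replicate 1 and without replicate 2, while the share of all genes called fell from 19.3% to 4.79% and 4.54%. In the knockdown pulldowns 3 members were lower, where 12% of all genes were, with Cacna1i at −2.04 ± 0.28, Cacna2d1 at −1.58 ± 0.11 and Cacna1g at −0.84 ± 0.20. Without replicate 1 this count was 6, with Cacna1a, Cacna1b and Cacna1h added, where 21.4% of all genes were called in either direction against 22.2% with it, again with 1 library in each group compared.

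**Figure D4:**
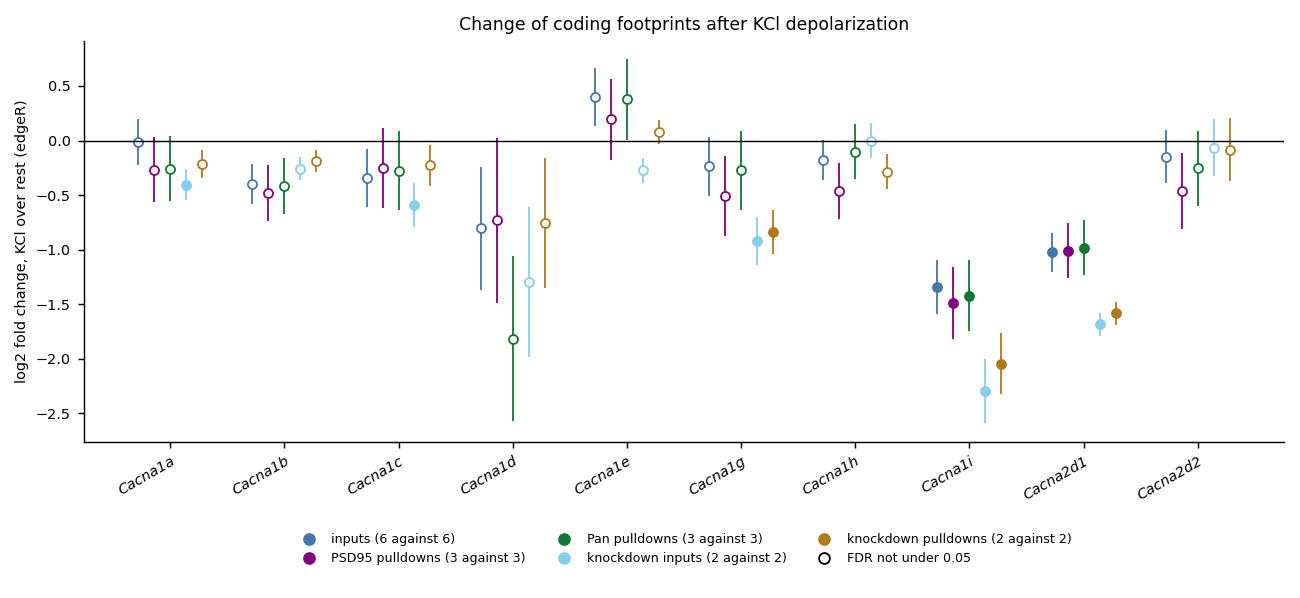
Log2 fold change of coding footprints after KCl relative to rest (edgeR, bars are SE) for the 10 genes in 5 comparisons, with open symbols where the adjusted p was not under 0.05. Cacna1i and Cacna2d1 are filled and below 0 in all 5 comparisons.

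The loss on Cacna2d1 was unequal along its CDS, which was divided into 4 equal parts with each exon segment assigned by its midpoint. In inputs of the KCl experiment, the first part changed by −0.52 on the log2 scale of CPM and the rest by −1.35. The difference of 0.83 lay at the 88.0th percentile of 1718 genes with at least 20 CDS segments, whose median difference was 0.22. In knockdown inputs, the first part had 87.7 and 98.0 CPM at rest and 74.1 and 62.8 CPM after KCl, whereas the rest of the CDS went from 372 and 370 to 77.8 and 69.8 CPM. Its difference of 1.89 lay at the 97.9th percentile of 1706 genes. In the knockdown pulldowns the 2 stretches moved alike, by −1.48 and −1.63. Cacna1i changed by −1.36 in the first part and −1.30 in the rest in the KCl inputs, a difference of −0.06, and by −1.57 and −2.62 in the knockdown inputs, where its difference of 1.06 lay at the 90.1th percentile. In replicates 1 and 2 of the depolarized knockdown inputs, Cacna1i had only 25 and 15 counts, with 48.0% and 26.7% in the first part. At rest the first part held 18.5% and 25.7%, so this difference came mainly from replicate 1. In PSD95-TurboID and Pan-TurboID pulldowns the differences were 0.59 and 0.67 for Cacna2d1 and 0.79 and 0.11 for Cacna1i. This comparison was chosen after the values were seen and has no test.

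In DHPG-treated neurons the pore genes were again higher in pulldowns, as most of the long genes were. In their PSD95-TurboID libraries, Cacna1b had 387, 357 and 372 CPM in inputs and 934, 922 and 951 CPM in pulldowns, and Cacna1e had 210, 207 and 190 CPM and 584, 558 and 524 CPM. Neither gene's groups overlapped. By edgeR, 9 members passed as higher in pulldowns, where 40.5% of 12257 genes and 81.6% of the 582 long genes did. The alpha1 genes ran from 1.16 ± 0.26 for Cacna1d to 1.75 ± 0.06 for Cacna1a (edgeR, adjusted p = 0.000483 and 1.24e-13), and Cacna2d2 was at 0.28 ± 0.09 (edgeR, adjusted p = 0.00826). Cacna2d2 did not pass without TMM scaling, at 0.074 (edgeR, adjusted p = 0.469), or without replicate 2 (edgeR, adjusted p = 0.0816). With the length trend removed, Cacna2d2 turned to −0.41. Cacna2d1 was the exception, with 260, 268 and 277 CPM in inputs and 243, 258 and 209 CPM in pulldowns. All 3 of its pulldowns lay below all its inputs, while the edgeR change was 0.03 ± 0.07 (edgeR, adjusted p = 0.732). CPM are on coding totals without TMM scaling. On these totals the edgeR change of Cacna2d1 was −0.18 and passed as lower. The median over all genes was −0.16 on these totals, against 0.04 with TMM.

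Against resting PSD95-TurboID inputs of the KCl experiment, DHPG inputs differed for 8 of 10 members, where 32.8% of 12787 genes did. Cacna1e at 1.39 ± 0.11, Cacna1g at 1.36 ± 0.20, Cacna1i at 1.09 ± 0.14, Cacna1b at 0.89 ± 0.23, Cacna1h at 0.66 ± 0.12, Cacna2d1 at 0.60 ± 0.15 and Cacna1c at 0.39 ± 0.13 were higher, and Cacna2d2 was lower by −1.02 ± 0.23. Cacna1c did not pass without TMM scaling, at 0.28 (edgeR, adjusted p = 0.137), nor without DHPG replicate 2 or 3 or resting replicate 1 or 3 (edgeR, adjusted p = 0.0679 to 0.14). Cacna2d2 had 43.9, 42.7 and 46.3 CPM in DHPG inputs against 72.1, 77.7 and 143 CPM at rest, without overlap. Treatment and experiment cannot be told apart in this comparison. Summed astrocyte markers, all 5 counted, were at 80.8 to 85.4 CPM in DHPG inputs and 287 to 726 CPM in the resting inputs, and the 7 neuronal markers at 5345 to 5452 against 3556 to 4233 CPM. Oligodendrocyte lineage markers, with Mog at 0, were at 38.4 to 43.3 against 220 to 524 CPM, and fibroblast markers at 33.0 to 34.0 against 345 to 417 CPM. Endothelial markers were at 8.75 to 10.4 against 17.0 to 49.4 CPM and markers of dividing cells at 24.1 to 30.8 against 86.6 to 165 CPM, while those of microglia and vascular smooth muscle overlapped. Their part in the result was not tested.

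In knockdown libraries, 7 members were higher in pulldowns than in inputs at rest and 8 after KCl. The shares of all genes were 22.1% and 24.0%, and of the long genes 68.1% and 67.8%, so most long genes were higher too. At rest, Cacna1g had 33.6 and 38.1 CPM in inputs and 83.9 and 84.5 CPM in pulldowns, a change of 1.34 ± 0.19 (edgeR, adjusted p = 2.8e-06). Cacna1d passed after KCl, at 1.90 ± 0.72 (edgeR, adjusted p = 0.0312), and was at 1.36 ± 0.56 at rest (edgeR, adjusted p = 0.0514), where it passed on its 6480-nt CDS at 1.29 ± 0.27 (edgeR, adjusted p = 0.000279). After KCl, the inputs held only 3 and 8 counts of the 1542-nt CDS of Cacna1d, and its pair ratios were 8.84 and 1.89. By edgeR, neither alpha2delta gene passed. Cacna2d1 was at −0.09 ± 0.10 and 0.01 ± 0.11, Cacna2d2 at −0.16 ± 0.26 and −0.18 ± 0.29. With the length trend removed, 4 members and 33% of all genes were called at rest, of which Cacna1a, Cacna1b and Cacna1e were higher and Cacna2d1 was lower at −0.58 (edgeR, adjusted p = 3.88e-05).

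The alpha2delta genes went in opposite directions between knockdown and other resting inputs. Cacna2d1 had 460 and 468 CPM in knockdown inputs against 173, 151 and 249 CPM, higher by 1.30 ± 0.22 (edgeR, adjusted p = 0.00122). Cacna2d2 had 24.9 and 25.7 CPM against 72.1, 77.7 and 143 CPM, lower by −1.92 ± 0.34 (edgeR, adjusted p = 0.00212). Neither gene's groups overlapped, and these 2 members compare with 3.89% of 13180 genes called in either direction. After KCl, Cacna2d2 alone passed, at −1.58 ± 0.35 (edgeR, adjusted p = 0.0096), where 5.29% of genes were called. Left out in turn, knockdown input replicates 1 and 2 took the adjusted p of Cacna2d2 to 0.0844 and 0.078 at rest and to 0.176 and 0.0914 after KCl. The 1 library left is then assumed to vary like the other groups, and the changes were −1.88 and −1.92 at rest and −1.44 and −1.74 after KCl. The share of all genes called was 0.426% in both fits at rest. Without a control siRNA, knockdown, siRNA treatment and experiment cannot be told apart. Marker sums that did not overlap between resting knockdown inputs and those without knockdown were higher for neurons (5151 to 5277 against 3556 to 4233 CPM), microglia (13.1 to 17.2 against 1.30 to 3.82 CPM) and endothelium (63.3 to 64.5 against 17.0 to 49.4 CPM). They were lower for the oligodendrocyte lineage (146 to 156 against 220 to 524 CPM) and fibroblasts (154 to 161 against 345 to 417 CPM). Markers of astrocytes, vascular smooth muscle and dividing cells overlapped. The endothelial sum was mostly Kdr, since Pecam1 and Cldn5 reached at most 1.15 and 2.34 CPM in any input. The part of these marker sums in the result was not tested.

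Along the CDS, enrichment in pulldowns tended to be weaker at the start. Over all pulldowns and all inputs, the first of the 4 parts of Cacna1a was at 0.95 on the log2 scale and the later parts at 1.48, 1.50 and 1.48. Each alpha1 gene was above 0 in all 4 parts, with first parts from 0.69 (Cacna1h) to 1.18 (Cacna1d). In contrast, Cacna2d1 had −0.43 and Cacna2d2 −0.79 in the first part and 0.15 to 0.54 in the later ones. Over the genes with at least 20 CDS segments, the median went from −0.46 in the first part to 1.13 in the last, so the rise along the CDS is shared with other genes. Cacna1d, whose 1542-nt CDS has only 11 segments, was read here on its 6480-nt CDS. Its lowest part, at 1.15, was not the first.

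Cacna1b showed a step in footprint density. Up to nt 3253 of its CDS, where the segment at chr2:24677822-24678039 ends, density was 2.01 to 7.94 times that of the remaining 3725 nt in 19 inputs, with a median of 4.70. In 19 pulldowns the ratio was 1.75 to 5.73, with a median of 3.15. The next segment lies at chr2:24661754-24661880. The first part of the CDS was denser in every one of the 38 libraries, and pulldowns exceeded inputs on both sides, by 1.08 before and 1.49 after the step on the log2 scale. Between 2 equal parts of the CDS, its ratio of 4.82 in inputs lay at the 98.9th percentile of 1733 genes, and 3.69 in pulldowns at the 99.5th of 1732. The same ratio was 1.32 and 1.08 for Cacna1a, the closest relative, and 2.65 and 2.16 for Cacna1h. The step was seen in the data and has no test.

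**Figure D5:**
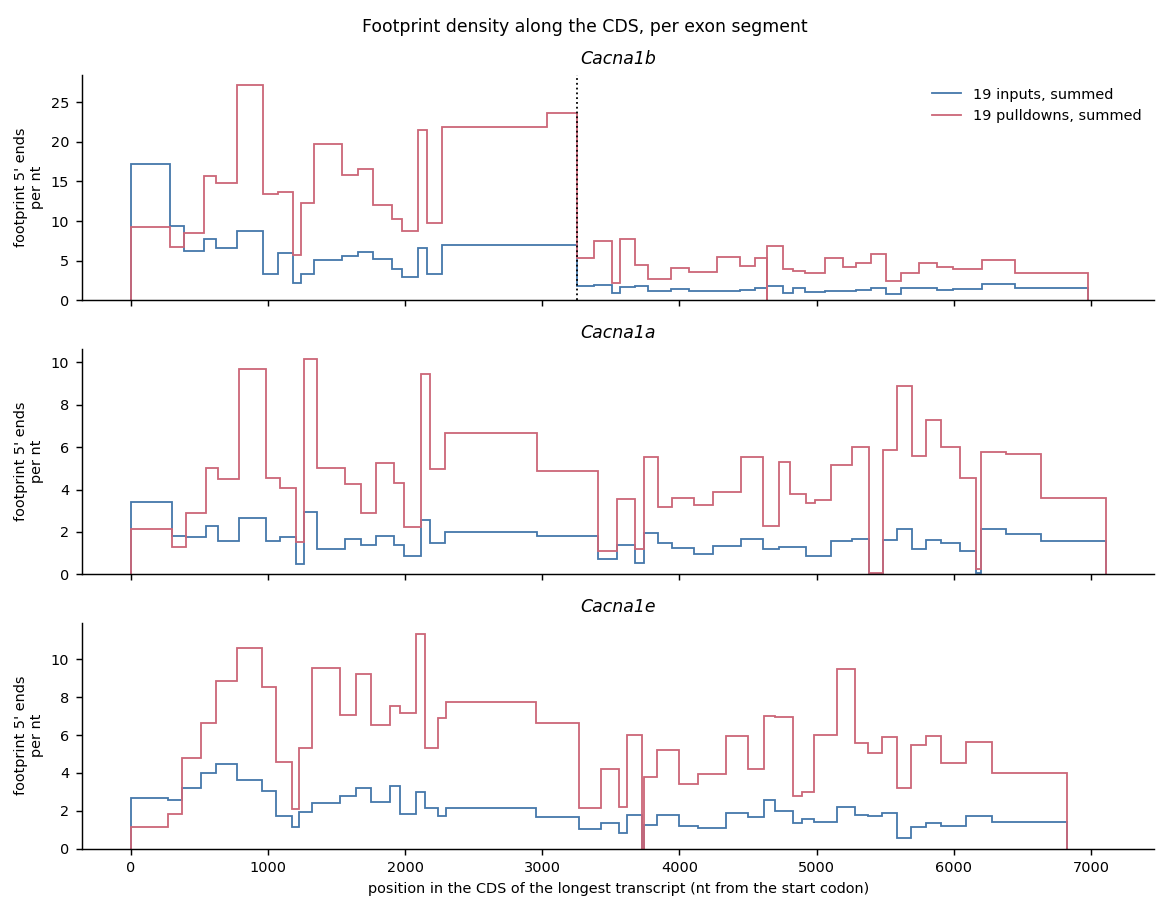
Footprint 5′ ends per nt of each exon segment (y axis) along the CDS of the longest transcript (x axis, nt from the start codon), summed over inputs and over pulldowns, for members named above each panel. Cacna1b drops after nt 3253 in both fractions.

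Untranslated regions held few footprints of these genes downstream and many upstream of the CDS. Density in the 3′ UTR was 0.207% to 5.15% of CDS density for 9 members, against medians of 0.409% in inputs and 0.62% in pulldowns over all genes. Cacna1d was apart, at 62.2% and 85.4%, and most of its 3′ UTR is coding in other transcripts. In the 5′ UTR, where 5′ ends of ribosomes on the first codons also fall, density in inputs ran from 73.6% (Cacna1e) to 1270.0% (Cacna1b) of CDS density, around a median of 186.0% over all genes. In pulldowns it ran from 13.0% to 192.0%, around 73.5%. Cacna1c has no 5′ UTR on its longest transcript. None of the other 9 members passed for 5′ UTR counts after KCl by edgeR, neither in inputs, where 0.443% of 10147 genes did, nor in PSD95-TurboID pulldowns, where 0.286% did. The likelihood ratio test called 0 members in both as well. Without replicate 1 Cacna1b alone passed in pulldowns, and the share of all genes in that fit is not given here. At an unadjusted p under 0.05, 0 members and 494 genes stood in inputs and 2 members and 1380 genes in pulldowns, the members being Cacna1h at 1.80 ± 0.71 and Cacna1b at 1.13 ± 0.57 beside a median of 0.65 over all genes.

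Other calcium handling genes were read beside the members. In resting PSD95-TurboID pulldowns, 11.5% of all genes and 34.8% of the long genes were higher and 13.5% of all genes were lower. Of 15 calcium release channels, pumps and exchangers, 12 were higher, with a median log2 change of 1.11. They included the ryanodine receptor Ryr2 at 1.49 ± 0.29, the reticular calcium pump Atp2a3 at 2.48 ± 0.50 and the sodium-calcium exchanger Slc8a3 at 1.40 ± 0.32. All 4 voltage-gated sodium channel alpha subunits were higher, with a median of 1.21, Scn8a at 1.37 ± 0.28, Scn3a at 1.24 ± 0.31 and Scn2a at 1.16 ± 0.31 having the smallest p. Of the remaining channel subunits, 5 of 9 could be tested, the beta subunits Cacnb1, Cacnb2, Cacnb3 and Cacnb4 and the alpha2delta gene Cacna2d3, and 0 passed, with a median of −0.12. Channel regulators gave 1 lower of 9 tested, the calcium-binding protein Cabp1 at −0.99 ± 0.34. Genes of calcium signalling to the nucleus gave 3 lower of 16, Creb1 at −1.23 ± 0.30, its coactivator Crtc1 at −0.81 ± 0.21 and the anchoring protein Akap5 at −0.65 ± 0.21.

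After KCl, 6.33% of all genes were higher and 9.02% lower in inputs, which held channel regulators in both directions. Rem2 and Gem, small GTPases that inhibit calcium channels, rose by 1.47 ± 0.24 and 1.63 ± 0.41, and Rims1, a presynaptic scaffold that binds calcium channels, was lower at −1.01 ± 0.15, as was Stac at −1.62 ± 0.43. In the release and transport list, 2 of 15 were lower, Ryr2 at −1.27 ± 0.22 and the plasma membrane pump Atp2b1 at −0.80 ± 0.21. Nuclear signalling had 5 of 16 lower, with Camkk2, a kinase that activates Camk4, at −1.15 ± 0.17 and the calcineurin catalytic subunits Ppp3ca and Ppp3cb at −0.55 ± 0.13 and −0.90 ± 0.21. Of the sodium channel genes, Scn3a rose by 0.75 ± 0.22 and Scn8a was lower at −0.71 ± 0.20. The remaining calcium channel subunits had 0 of 5 called, with a median of −0.42.

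By group mean log2 CPM over the 14 groups and 11770 genes, Cacna1b was most like Dync1h1, the heavy chain of cytoplasmic dynein (r = 0.986), Myh8 (r = 0.983) and Mtmr9 (r = 0.973). Cacna2d1 was most like Lrrn3 (r = 0.968), Gpr37 (r = 0.949) and Tnks2 (r = 0.938). These correlations are descriptions over groups that share experiments and library depth.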

How the data were processed

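Footprint libraries (38, in 14 groups) were grouped and numbered from the labels, and input and pulldown of the same number were set side by side. Per their methods, the authors trimmed and demultiplexed reads with Rfastp and fastq-multx, cut off molecular identifiers and aligned to mm10 with Rsubread. The authors then deposited whole-number counts from plastid of the 5′ ends of footprints of 25 to 100 nt in each exon segment of a CDS or UTR, without an offset. Without an offset, a 5′ end lies upstream of the codon being read. File headers mark ribosomal RNA and duplicates as removed, which can flatten dense short stretches. Use of strand is not given in the sources used here. Libraries held 5906281 to 35643247 counts in the alignment, and replicates were not pooled. No per-sample column was left unused (0 columns).

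Segment counts were summed for the longest transcript of each gene, named through GENCODE M21 (66664 of 67238 coding transcripts matched, 99.1%, and 574 were left out). Tests on summed CDS counts used the robust quasi-likelihood F test of edgeR 4.0.16 (R 4.3.3) with filterByExpr, TMM scaling and Benjamini-Hochberg adjustment over all genes tested, at an FDR of 0.05. The KCl experiment shared 1 fit of 24 libraries. SEs were derived from the fold change and its F statistic. The tests were checked on simulated counts. Alternatives were the study's likelihood ratio test, DESeq2 1.42.0, RLE factors, CDS totals without TMM, no filter, the transcript with the highest count (for Cacna1d, with a CDS of 6480 nt, 3 calls changed, all to passing), removal of a trend over CDS length, another input reference, replicate blocks and leaving out replicates. Deviations from group means of same-numbered inputs and pulldowns correlated across genes in the KCl experiment (r = 0.203 to 0.54 in 12 of 12 pairs), so the numbers pair these libraries. They did not in the knockdown (0.00679 to 0.0168, 4 pairs) or DHPG experiments (−0.126 to 0.045, 3 pairs). Replicates differed by more than sampling noise (chi-square of 1.48 to 49.3 per gene). Exon copies were segments of the same length, at least 40 nt and 50% identical. Overlapping transcripts are counted in each, so a level belongs to the transcript and not to the isoform alone. All 10 members are named throughout. Of the other lists, at most 3 genes in each direction with the smallest p among those passing are named, and the most similar patterns are given for the highest alpha1 and alpha2delta gene. The members, lists and this rule were chosen with earlier results of these data known.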

Additional observations from a re-analysis of the deposited data

Results flagged for a closer look

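Cacna2d1 stood on opposite sides of its inputs in different PSD95-TurboID experiments. In depolarized neurons the 3 pulldowns lay above the 3 inputs, with a ratio of group mean CPM of 1.35. In DHPG-treated neurons the 3 pulldowns lay below the 3 inputs, at a ratio of 0.882. In resting knockdown neurons the 2 pulldowns lay below the 2 inputs, at a ratio of 0.868. These ratios are on coding totals without TMM scaling. On these totals the median log2 change of all genes was −0.06 after KCl, −0.16 with DHPG and −0.12 in resting knockdown neurons. The change of Cacna2d1 with DHPG was −0.18 on them and passed as lower by edgeR. The difference between these experiments was not tested. By edgeR with TMM scaling the changes of Cacna2d1 were 0.47 ± 0.26 (SE) after KCl, 0.03 ± 0.07 with DHPG and −0.09 ± 0.10 in resting knockdown neurons, and 0 of these passed. With the replicate block, which pairs the KCl libraries, the change after KCl passed at 0.51 (edgeR, adjusted p = 0.00739).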

How the results depend on the processing

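Counts of members called were recomputed under the alternatives, and the cause of a change was not tested. Where no share of all genes is given for a setting, a count is a description and not a result about the members. With the trend over CDS length removed, counts of members higher in pulldowns went from 7 to 4 (PSD95-TurboID, rest), 6 to 1 (dep), 5 to 1 (Pan-TurboID, rest) and 5 to 0 (dep). In knockdown they went from 7 to 4 called at rest, 3 higher and 1 lower, and from 8 to 6 after KCl, 4 higher and 2 lower. The same setting took the KCl change in knockdown inputs from 5 to 3, and knockdown against no knockdown from 2 to 4 at rest and 1 to 2 after KCl. DESeq2 and RLE size factors each gave 3 for the KCl change in knockdown inputs. For knockdown against no knockdown in dep inputs, the likelihood ratio test and DESeq2 gave 3, and no filter gave 2, with 4 at rest.

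Leaving out replicates in turn, which also took calls over all genes from 25.1% and 12.6% to as few as 0.0% and 0.0227% for PSD95-TurboID pulldowns at rest and dep, gave 0 to 7 members for resting PSD95-TurboID pulldowns, 0 to 5 for dep, 0 to 5 for each Pan-TurboID comparison, 1 to 4 for KCl in inputs, 0 to 3 in PSD95-TurboID and 0 to 2 in Pan-TurboID pulldowns. The ranges were 8 to 9 for DHPG pulldowns, 7 to 8 for DHPG against resting inputs, 6 to 6 and 6 to 7 for knockdown pulldowns at rest and dep, 2 to 2 and 3 to 6 for KCl in knockdown inputs and pulldowns, 1 to 2 and 0 to 2 for knockdown against no knockdown, and 0 to 1 for 5′ UTR counts in pulldowns. Knockdown groups of 1 library were assumed to vary like the others.

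With the replicate block that pairs input and pulldown, the counts were 9 and 9 for PSD95-TurboID and 8 and 8 for Pan-TurboID at rest and dep. The block changed 11 of 80 member calls, all to passing, and with the number as a term 78 of 78 were as before.

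In 2016 repeats of the member tests the sign changed 96 times, 90 of them for values past the threshold in neither fit. The other 6 were as follows. Cacna2d1 with DHPG passed as lower without TMM, at −0.18, where the median of all genes was −0.16. It also passed as lower with the length trend removed, at −0.64. That removal also gave −0.41 for Cacna2d2 with DHPG, −0.022 for Cacna1i in resting knockdown, and −0.27 for Cacna1h and −0.55 for Cacna2d1 in depolarized knockdown. Depth limits Cacna1d most, at 1069 counts on its longest transcript and 5155 on the transcript with the highest count, where it also passed for resting PSD95-TurboID pulldowns, resting knockdown pulldowns and KCl in knockdown inputs.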
